A study of Mus musculus with 2 samples.

Results

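The contractile filaments of heart muscle are built from a small set of paralogous genes, and 5 of the 55357 genes in the count tables were examined here, namely the striated myosin heavy chains Myh6, Myh7 and Myh7b and the sarcomeric actins Acta1 and Actc1. They were chosen by symbol, and each symbol matched 1 gene. The 2 single-cell RNA sequencing libraries came from hearts of C57BL/6 mice, 1 from the Sham group and 1 from the TAC group, with 3 to 5 hearts combined in each library. TAC, or transverse aortic constriction, ties a suture around the aortic arch to overload the left ventricle. The labels give the TAC mice as male, aged 8 weeks at surgery and kept under constriction for 6 weeks. For the Sham mice they describe the operation with no constriction, while the series description calls the comparison mice uninjured. The labels give neither age nor sex for the Sham mice, they name no genetic change in either group, and the hearts of a library cannot be separated. With 1 library per condition no test between conditions was possible. All intervals are exact 95% intervals that cover counting error only, and every difference between Sham and TAC describes these 2 libraries.

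Myosin heavy chain is the motor of the thick filament. Myh6 encodes the fast alpha chain, the main chain of the adult mouse ventricle, and Myh7 encodes the slow beta chain, which predominates before birth and returns under pressure overload or low thyroid hormone. Myh7b encodes a more distant, less abundant relative. Actc1 encodes cardiac alpha-actin, the main actin of the adult thin filament, whereas Acta1 encodes skeletal alpha-actin, a classical member of the fetal program that overloaded hearts re-express together with the natriuretic peptides Nppa and Nppb.

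In GENCODE M21 on GRCm38, Myh6 (ENSMUSG00000040752) lies at chr14:54941921-54966927 and Myh7 (ENSMUSG00000053093) at chr14:54970684-54994626, both on the minus strand and separated by 3756 bases. Myh7b (ENSMUSG00000074652) lies at chr2:155611212-155634307 on the plus strand, Actc1 (ENSMUSG00000068614) at chr2:114047282-114053548 on the minus strand, and Acta1 (ENSMUSG00000031972) at chr8:123891769-123894751 on the minus strand. Each of the 3 myosin genes carries a microRNA in an intron, in intron 29 of 38 of Myh6, intron 31 of 40 of Myh7 and intron 19 of 41 of Myh7b, counted along the longest transcript. These microRNAs are known as part of the circuit that sets the balance between the heavy chains, and their mature sequences in RefSeq (GRCm38.p6) are shown 5′ to 3′ because they travel with the host transcripts measured here, with bases 2 to 8, the seed, in capitals:
miR-208a-3p of Myh6, chr14:54949072-54949093 (minus strand): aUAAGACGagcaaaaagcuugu
miR-208b-3p of Myh7, chr14:54975710-54975731 (minus strand): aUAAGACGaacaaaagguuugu
miR-499-5p of Myh7b, chr2:155622893-155622913 (plus strand): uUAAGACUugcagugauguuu
miR-208a-3p and miR-208b-3p share the seed UAAGACG, and miR-499-5p has the seed UAAGACU. A poly(A)-primed library does not measure mature microRNAs, so the host genes' UMIs (unique molecular identifiers, each marking a captured RNA molecule) are not levels of these microRNAs.

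The actin promoters are shown next because Acta1 and Actc1 differed in opposite directions between the libraries. The 150 bases before the RefSeq start (GRCm38.p6) were searched on both strands for the CArG box, the binding sequence of serum response factor, for CATTCC, the core of the MCAT element bound by TEAD factors, and for TATAAA, and matches are in capitals, 5′ to 3′ along the gene:
Acta1, chr8:123894776-123894925 (minus strand): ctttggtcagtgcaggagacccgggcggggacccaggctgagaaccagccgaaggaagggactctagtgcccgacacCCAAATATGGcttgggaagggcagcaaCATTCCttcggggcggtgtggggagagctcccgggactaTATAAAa
Actc1, chr2:114052876-114053025 (minus strand): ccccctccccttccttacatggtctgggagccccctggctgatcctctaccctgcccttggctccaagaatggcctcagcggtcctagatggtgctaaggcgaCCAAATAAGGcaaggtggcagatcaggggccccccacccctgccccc
Both windows held 1 CArG box, whose first base was 73 bases before the start of Acta1 and 47 before that of Actc1. The CATTCC and TATAAA matches were found for Acta1 only, and the windows of Myh6 and Myh7 held none of the 3. Among 32851 promoter windows of this length in the table, 0.916% held a CArG box, 7.59% CATTCC and 7.57% TATAAA. These matches are letters in a window and were not tested as binding sites. Of the Actc1 window 12 bases, and of the Myh6 window 34 bases, lie in a GENCODE exon. For Myh7, 2 starts were listed and only the window of the first was searched.

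Sequence sharing limits how sharply the 2 cardiac heavy chains can be told apart. Of all 50-base windows of the longest Myh6 transcript, 22.6% also occurred in Myh7 transcripts, and in its last 500 bases, near which a 3′ kit draws its reads, 42.8% did. The corresponding figures for Myh7 were 22.2% and 51.0%. A read lying wholly within such a stretch does not tell the genes apart. How such reads were counted is not given in the sources used here, and their part in the Myh7 share was not tested. No 50-base window was shared between Acta1 and Actc1 or with Myh7b.

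There were 9935 barcodes with 28146691 UMIs in total for Sham, and 9932 with 29108986 for TAC. After filtering, 2333 of 9465 Sham cells (24.6%) and 2398 of 9459 TAC cells (25.4%) fell in clusters named cardiomyocytes from markers that left the 5 genes out. All 11 cardiomyocyte markers, among them Ttn, Ryr2 and Tnnt2, were detected in both libraries, with summed levels of 70486 and 53796 UMIs per 1000000 in Sham and TAC, respectively. By their light chains the cells were mostly ventricular: Myl2, the ventricular chain, had 10959 UMIs in Sham and 11044 in TAC and Myl7, the atrial chain, had 3 and 12. All 8 fibroblast markers had UMIs in both libraries and summed to 70.9 UMIs per 1000000 in Sham and 100.5 in TAC, and all 8 macrophage markers summed to 29.3 and 37.6. The 10 endothelial markers summed to 1440 and 1201, almost wholly through Cd36, a fatty acid transporter that cardiomyocytes also use, with 17346 of 17960 UMIs in Sham and 15036 of 15744 in TAC. The 7 smooth muscle markers summed to 776 and 764, led by Smtn, and the 7 pericyte markers to 270 and 383, led by Abcc9. The part of other cells' RNA in the results was not tested. Median depth was 4469 UMIs in Sham and 4914.5 in TAC cardiomyocytes, and the median mitochondrial share was 0.234% and 0.128%. A further Sham cluster of 174 cells had a cardiomyocyte marker level of 69304 UMIs per 1000000. It stayed unnamed because no type reached the 3 markers that the naming rule needs. It was left out of the main values, and its Myh7 share of 3.94% (3.62 to 4.28%) was close to that of the named clusters while its Acta1 share of 6.72% (3.96 to 10.5%) was lower.

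The composition of both gene families differed between Sham and TAC cardiomyocytes, but not in parallel. Myh7 was higher in TAC and Myh6 slightly lower, so the beta chain took a larger part of the cardiac heavy chain UMIs. The actins differed the other way, with less of the fetal-type Acta1 and more Actc1 in TAC. Myh7b was lower in TAC. These values are given gene by gene below and in the plot of levels in cardiomyocytes.

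Myh6 was the most abundant of the 5 genes, with 169004 UMIs in Sham and 152313 in TAC cardiomyocytes, that is 13548 (13483 to 13613) and 11618 (11559 to 11676) UMIs per 1000000. The ratio of TAC to Sham was 0.858 (0.852 to 0.863), against a median ratio of 1.02 over the 13192 genes with at least 50 UMIs in the cardiomyocytes of both libraries together. At least 1 Myh6 UMI was seen in 2328 of 2333 Sham and 2393 of 2398 TAC cardiomyocytes.

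Myh7 had 7655 UMIs in Sham and 10820 in TAC, or 614 (600 to 628) and 825 (810 to 841) UMIs per 1000000, a ratio of 1.34 (1.31 to 1.39). It was seen in 78.6% of Sham and 91.7% of TAC cardiomyocytes, and in 37.7% and 53.4% after each cell had been thinned to 1000 UMIs. The difference was spread over many cells, and the median cell held 2 Myh7 UMIs in Sham and 4 in TAC.

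Myh7b had 5280 UMIs in Sham and 2986 in TAC, or 423 (412 to 435) and 228 (220 to 236) UMIs per 1000000, a ratio of 0.538 (0.514 to 0.563). After thinning, 32.3% of Sham and 20.01% of TAC cardiomyocytes had a Myh7b UMI. In Sham it reached 2.90% of the UMIs of the 3 heavy chains, and in TAC 1.80%, while Myh7 made up 4.21% and 6.51%.

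Actc1 had 3292 UMIs in Sham and 5188 in TAC, or 264 (255 to 273) and 396 (385 to 407) UMIs per 1000000, a difference of 0.58 on the log2 scale. The ratio, with an interval of 1.44 to 1.57, lay just below the threshold of 1.5-fold used for calls, and passed it in some of the alternatives listed at the end. A single TAC cell held 89 Actc1 UMIs, and the next highest held 25. Without the highest cell of each library the ratio was 1.48 (1.42 to 1.55), an alternative added after the data had been seen.

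Acta1 was the rarest of the 5 genes, with 438 UMIs in Sham and 157 in TAC, or 35.1 (31.9 to 38.6) and 12.0 (10.2 to 14.0) UMIs per 1000000. It was 2.93-fold lower in TAC (2.44 to 3.54). Only 221 Sham and 80 TAC cardiomyocytes had an Acta1 UMI, and in TAC the 24 cells with the most Acta1 held 58.6% of its UMIs against 31.1% in Sham.

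**Figure D1:**
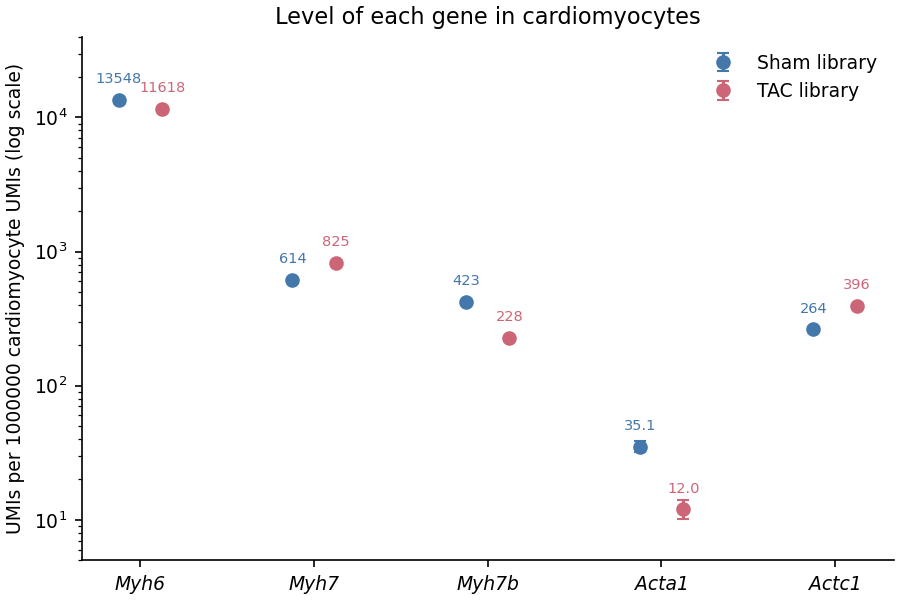
Level of each gene in the cardiomyocytes of the Sham and TAC libraries, as UMIs per 1000000 UMIs on a log scale, with exact Poisson 95% intervals (smaller than the points for most genes) and the value printed above each point. Myh7 and Actc1 are higher in TAC, Myh6, Myh7b and Acta1 are lower, and Acta1 differs most, at 35.1 and 12.0.

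At the threshold of 1.5-fold, Acta1 and Myh7b were called lower in TAC and none of the 5 genes was called higher. Over all 13192 genes counted, 6.55% were lower and 13.2% higher by this threshold. The number of lower genes depended on how cells were named, at 864 here and 1360 with cell types taken from each cell's own markers. Together the 3 heavy chains gave 14585 UMIs per 1000000 in Sham and 12671 in TAC, and the 2 actins 299 and 408, so that there were 48.8 heavy chain UMIs for each actin UMI in Sham and 31.1 in TAC. To compare genes with each other, levels were divided by the length of the longest transcript. In this unit of UMIs per 1000000 and kb the order was the same in both libraries, with Myh6 at 2216 in Sham and 1900 in TAC, Actc1 at 179 and 269, Myh7 at 98.5 and 132, Myh7b at 68.7 and 37.0, and Acta1 at 24.3 and 8.28. Their counting intervals did not overlap between neighbours in this order. Division by the length of the gene instead of the transcript gave the same order. Without division the order differed between the libraries, and Myh7 stood above Actc1 in both, at 614 against 264 and 825 against 396 UMIs per 1000000. Undivided, Myh7b stood above Actc1 in Sham, at 423, and below it in TAC, at 228. A 3′ kit counts molecules near their ends, so the division may overcorrect for the long heavy chain transcripts.

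Isoform shares describe the balance within each pair. Of the UMIs of Myh6 and Myh7, Myh7 made up 4.33% (4.24 to 4.43%) in Sham and 6.63% (6.51 to 6.75%) in TAC cardiomyocytes. Of the UMIs of Acta1 and Actc1, Acta1 made up 11.7% (10.7 to 12.8%) in Sham and 2.94% (2.50 to 3.43%) in TAC. By the share of UMIs, then, the alpha chain and cardiac actin remained the main isoforms in both libraries.

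The Myh7 share could be read in single cells. At least 20 UMIs of Myh6 and Myh7 were present in 2160 Sham and 2251 TAC cardiomyocytes, with medians of 69 and 64 UMIs of the pair per cell. The median share was 2.94% in Sham, with quartiles of 1.42 and 5.13%, and 6.06% in TAC, with quartiles of 3.85 and 8.77%. The lowest share was 0 in both, held by 372 Sham cells (17.2%) and 116 TAC cells (5.15%), and the highest was 100% in Sham and 97.4% in TAC. The bulk of TAC cells was therefore shifted upward, with the upper Sham quartile below the TAC median, yet the 2 distributions overlapped over nearly the whole range.

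The order of the libraries differed with the height of the share. A share of 10% or more was found in 160 Sham cells (7.41%, 6.34 to 8.59%) and 432 TAC cells (19.2%, 17.6 to 20.9%). A share of 25% or more, however, was found in 58 Sham cells (2.69%, 2.05 to 3.46%) and only 19 TAC cells (0.844%, 0.509 to 1.31%), the opposite order. A share of 50% or more was found in 13 Sham (0.602%, 0.321 to 1.03%) and 9 TAC cells (0.400%, 0.183 to 0.758%), with overlapping intervals, and one of 75% or more in 4 cells of each library. These Myh7-rich cells contributed 20.9% of the Myh7 UMIs of the Sham cells with a measured share and 4.06% of those in TAC. Without them, cells picked by the share itself, the pooled Myh7 share of the others was 3.50% in Sham and 6.40% in TAC. Where 50 UMIs of the pair were required, 38 of 1567 Sham cells (2.43%, 1.72 to 3.31%) and 5 of 1561 TAC cells (0.320%, 0.104 to 0.746%) had a share of 25% or more, with 2.05% of the TAC Myh7 UMIs, so most TAC cells of this range had fewer UMIs of the pair. The variance of the share was 8.5 times that of counting error alone in Sham and 3.63 times in TAC. The boundaries of 10, 25 and 50% were chosen after the distribution had been seen, and 35 Sham and 22 TAC cells had shares of 20 to under 30%, so the Myh7-rich cells are a range of shares and not a cell type.

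**Figure D2:**
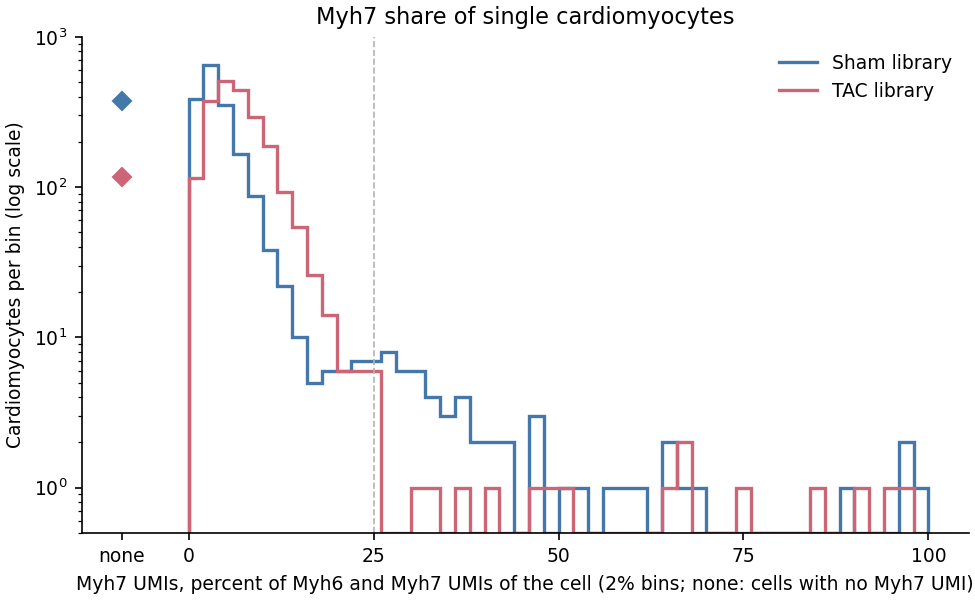
Number of cardiomyocytes per 2% bin of the Myh7 share of their Myh6 and Myh7 UMIs, on a log scale, for 2160 Sham and 2251 TAC cells with at least 20 UMIs of the pair. Diamonds give the 372 Sham and 116 TAC cells with no Myh7 UMI, empty bins are drawn at the bottom of the axis, and the dashed line marks 25%, beyond which there are 58 Sham and 19 TAC cells.

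The Acta1 share could hardly be read in single cells. No Sham and only 5 TAC cardiomyocytes reached 20 actin UMIs, and 25 and 90 reached 10. With a minimum of 5 actin UMIs, added after the data had been seen, 222 Sham and 364 TAC cells were left, of which 148 (66.7%) and 327 (89.8%) had no Acta1 UMI. Among the same cells an Acta1 share of 50% or more was found in 29 Sham cells (13.1%, 8.93 to 18.2%) and 6 TAC cells (1.65%, 0.607 to 3.55%). With medians of 6 and 7 actin UMIs in these cells, a cell without an Acta1 UMI need not lack Acta1 RNA, and the lower counts in TAC go with the lower level given above.

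Within each library the cardiomyocytes formed 2 clusters, found without the 5 genes. The Myh7 share was 4.08% (3.92 to 4.25%) in 932 Sham cells led by Ptgds and 4.45% (4.33 to 4.56%) in 1401 Sham cells led by Pdzrn4 and Kcnd2. In TAC it was 6.75% (6.60 to 6.90%) in 1748 cells led by Ankrd1 and 6.41% (6.20 to 6.61%) in 650 cells led by Pdzrn4. The Acta1 share was 11.2% (9.39 to 13.2%) and 12.0% (10.8 to 13.3%) in the Sham clusters. In TAC it was 3.88% (3.29 to 4.53%) in the first cluster and 0.414% (0.152 to 0.898%) in the second, where 6 Acta1 UMIs stood beside 1444 Actc1 UMIs. The Acta1 share was lower and the Myh7 share higher in both TAC clusters than in both named Sham clusters. The unnamed Sham cluster of 174 cells is not among these. Its Acta1 share of 6.72% (3.96 to 10.5%) had an interval that overlapped that of the first TAC cluster.

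Some genes that did not define the Myh7-rich cells also had other levels in them. In cardiomyocytes with a Myh7 share of 25% or more, Acta1 had 25 UMIs in 8 of 58 Sham cells, or 74.4 UMIs per 1000000, and 14 UMIs in 6 of 19 TAC cells, or 130 UMIs per 1000000. In low-share cells, those with a share above 0 and under 10%, Acta1 stood at 31.3 and 10.5 UMIs per 1000000. It stood at 39.5 and 23.3 in cells with a share of 0, and at 60.4 and 7.12 in those with 10 to under 25%. Below 25%, the TAC level did not rise with the share. The level in Myh7-rich cells was thus 2.38-fold (1.52 to 3.58) that of the low-share cells in Sham and 12.4-fold (6.57 to 21.8) in TAC, with TAC resting on 14 UMIs. Actc1 differed less, at 1.15-fold (0.930 to 1.40) in Sham and 1.26-fold (0.948 to 1.65) in TAC, intervals that include 1. Myh7b was 1.18-fold (1.003 to 1.38) and 1.43-fold (0.991 to 1.99). Among the Myh7-rich cells, 1 TAC cell held 15 of the 35 Myh7b UMIs, and 1 Sham cell held 9 of the 25 Acta1 UMIs.

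The natriuretic peptides and Ankrd1, a titin-binding stress protein, stood out in the same cells. Nppa, encoding atrial natriuretic peptide, was 12.3-fold (8.52 to 17.5) higher in Myh7-rich than in low-share cells in Sham and 11.4-fold (5.89 to 20.4) in TAC, and was seen in 12 of 58 Sham and 4 of 19 TAC Myh7-rich cells. Nppb, encoding brain natriuretic peptide, was 3.79-fold (2.73 to 5.16) and 14.3-fold (9.94 to 20.1) higher, with a UMI in 24 of 58 and 9 of 19 cells. Ankrd1 was 4.60-fold (4.15 to 5.09) and 8.53-fold (7.49 to 9.68) higher. Xirp2, a protein of intercalated discs and Z-discs, was 1.25-fold (1.12 to 1.39) higher in Sham and 5.57-fold (4.97 to 6.23) in TAC, where 1 cell held 93 of the 324 UMIs. Atp2a2, the calcium pump of the sarcoplasmic reticulum, was lower in the Myh7-rich cells of both libraries, at 0.710 (0.651 to 0.774) and 0.496 (0.419 to 0.582) times the level of the low-share cells. In TAC the general cardiomyocyte genes Tnnt2 and Ttn were also lower in these cells, at 0.739 (0.681 to 0.802) and 0.833 (0.799 to 0.867) times, against 1.05 (1.01 to 1.08) and 1.01 (0.993 to 1.03) times in Sham. Myl2 was not lower, at 1.03 (0.829 to 1.26) times in TAC and 1.20 (1.07 to 1.34) times in Sham. Median depth was 5379 UMIs in Sham and 4310 in TAC Myh7-rich cells, against 5244 and 5358 in low-share cells, and the part of depth in the TAC values was not tested. Whether these cells came from 1 heart or several cannot be told apart.

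**Figure D3:**
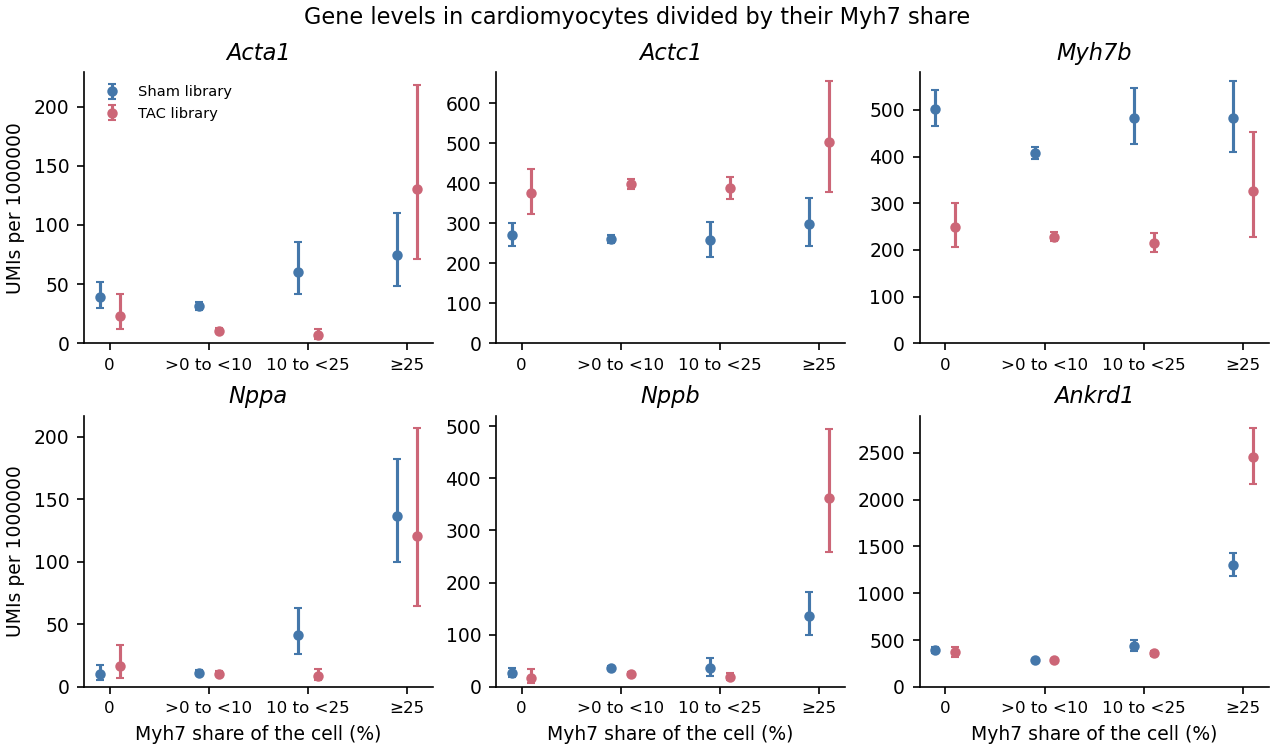
Levels of Acta1, Actc1, Myh7b, Nppa, Nppb and Ankrd1 (UMIs per 1000000, exact Poisson 95% intervals) in Sham and TAC cardiomyocytes divided by their Myh7 share. Nppa, Nppb, Ankrd1 and, with wide intervals, Acta1 are highest in the 58 Sham and 19 TAC cells with a share of 25% or more, whereas Actc1 keeps overlapping intervals across classes in each library.

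A division by the mere presence of Myh7 gave other values, and for some genes the other direction. After thinning to 2000 UMIs, which left out 237 Sham and 131 TAC cells, 1229 Sham cardiomyocytes had a Myh7 UMI and 867 had none, and in TAC 1722 did and 545 did not. Acta1 stood at 40.3 UMIs per 1000000 with and 39.8 without Myh7 in Sham, a ratio of 1.01 (0.737 to 1.40), and at 9.58 and 15.6 in TAC, a ratio of 0.614 (0.333 to 1.18). Myh6 was itself higher in the cells with a Myh7 UMI, by 1.10 times (1.08 to 1.11) in Sham and 1.27 times (1.24 to 1.29) in TAC, and Actc1 by 1.14 (1.02 to 1.29) and 1.31 (1.16 to 1.47). Nppa was 2.12-fold (1.26 to 3.71) higher with Myh7 in Sham and 1.27-fold (0.571 to 3.18) in TAC, and Nppb 1.30-fold (0.941 to 1.82) and 1.04-fold (0.656 to 1.70). Only the Sham Nppa interval and no Nppb interval excluded 1. Ankrd1 was 0.847 (0.764 to 0.940) times its level without Myh7 in Sham and 0.971 (0.862 to 1.10) times in TAC, and Xirp2 0.922 (0.864 to 0.984) and 0.862 (0.787 to 0.944) times, whereas both were higher in the Myh7-rich cells. Atp2a2 was 0.994 (0.953 to 1.04) times in Sham and 1.07 (1.03 to 1.12) times in TAC, and was lower in the Myh7-rich cells of both.

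Across the same thinned cells, the gene most like Myh7 among 4436 genes by the mean of the coefficients of both libraries was Myh6, with a Pearson r of 0.05 over 2096 Sham and 0.24 over 2267 TAC cells. In Sham alone Fhl2 and Gm31251 had higher coefficients than Myh6. It was followed by Mhrt, Gm31251, Fhl2 and Actc1, with mean coefficients of the 2 libraries from 0.11 down to 0.07. For Acta1 the 5 genes were Ankrd1 (0.11 and 0.22), Ppm1e, Prune2, Gm13481 and Fhl1, with mean coefficients from 0.16 to 0.09. Coefficients this small in sparse counts describe these cells, which share a library and the capture of each droplet, and Acta1 was seen in only 5.63% and 1.90% of them.

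Mhrt, a noncoding transcript known to bind the chromatin remodeller Brg1 in the heart, lies at chr14:54968678-54974349 on the plus strand and overlaps the 3′ part of Myh7 by 3666 bases in antisense. It had 22382 UMIs in Sham and 27453 in TAC cardiomyocytes, or 1794 (1771 to 1818) and 2094 (2069 to 2119) UMIs per 1000000, more than Myh7 in both libraries. In the Myh7-rich cells it was 0.497 (0.443 to 0.555) times the level of the low-share cells in Sham and 0.694 (0.590 to 0.810) times in TAC. By the presence of a Myh7 UMI the direction was the other one, with Mhrt 1.15 times (1.10 to 1.21) higher in Sham and 1.24 times (1.18 to 1.30) higher in TAC cells with Myh7. Whether the counting used the strand is not given in the sources used here, so reads of Myh7 and Mhrt in the overlap may not be separable.

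The other genes of the contractile apparatus were read from 6 lists with 83 entries, chosen with earlier results of these data known. Of the thick filament and light chain genes, 11 of 13 had enough UMIs, of which 1 was higher and 3 lower in TAC by 1.5-fold, with a median ratio of 0.740 against 1.02 over all genes, of which 13.2% were higher and 6.55% lower. The highest ratio was that of Myl4, the atrial essential light chain, with 53 UMIs in Sham and 112 in TAC, a ratio of 2.01 (1.44 to 2.84). The lowest was that of Myom2, an M-band protein, with 5260 and 2565 UMIs, a ratio of 0.464 (0.442 to 0.487). Ttn and the myosin-binding protein gene Mybpc3 were the other 2 lower genes, at 0.633 (0.630 to 0.635) and 0.651 (0.636 to 0.667).

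Of 22 thin filament and Z-disc genes, 20 were counted, 1 was higher and 3 were lower, with a median ratio of 1.03, against 13.2% higher and 6.55% lower and a median of 1.02 over all genes. Tnnt1, slow skeletal troponin T, was the highest with 63 and 105 UMIs, a ratio of 1.59 (1.15 to 2.20). With at least 200 UMIs required, neither Tnnt1 nor Myl4 was called. Tpm2, the beta-tropomyosin gene of skeletal muscle, was the lowest with 301 and 116 UMIs, a ratio of 0.367 (0.293 to 0.456), close to that of Acta1. Tpm1, the cardiac tropomyosin, had a ratio of 1.46 (1.42 to 1.497), close to that of Actc1. Xirp1 and Xirp2 were also lower, at 0.569 (0.502 to 0.645) and 0.634 (0.616 to 0.653).

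The skeletal heavy chains Myh1, Myh2, Myh8 and Myh13 had no UMI in the cardiomyocytes of either library, and Myh3 had 3, Myh4 1 and Myh15 1 in all. A count of 0 allows a level of up to 0.240 UMIs per 1000000 in Sham and 0.229 in TAC. The only member of the list of other heavy chains with at least 50 UMIs was Myh14, which encodes a nonmuscle chain, at a ratio of 0.778 (0.699 to 0.866). Of 7 smooth muscle and nonmuscle genes, 4 were counted and 1 was lower, against 6.55% of all genes. The cytoplasmic actin gene Actb had the lowest ratio, 0.647 (0.581 to 0.720), and the nonmuscle myosin gene Myh9 the highest, 0.909 (0.799 to 1.03). Acta2, the smooth muscle actin, had 22 and 24 UMIs.

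Of 13 stress and fetal genes, 11 were counted, of which none was higher and Xirp2, also listed above, was lower, against 13.2% higher and 6.55% lower over all genes. Nppa had 197 UMIs in Sham and 154 in TAC, a ratio of 0.744 (0.598 to 0.923), and Nppb 479 and 386, a ratio of 0.767 (0.669 to 0.879). Pln, which restrains the calcium pump, was the highest at 1.44 (1.41 to 1.46). Acta1, Nppa and Nppb were therefore all below their Sham level in the TAC cardiomyocytes, while Myh7 was above it. Among them only Acta1 passed 1.5-fold. Ankrd1 and Fhl1, on the same list, had ratios of 0.987 (0.946 to 1.03) and 1.27 (1.14 to 1.40). Of 20 known regulators of these genes, 19 were counted, none was higher, and 1, Srf, the serum response factor, was lower, with 80 and 51 UMIs and a ratio of 0.607 (0.418 to 0.873), beside the same 13.2% and 6.55% of all genes. Myocd, the myocardin coactivator of serum response factor, was the highest at 1.31 (1.28 to 1.33). Thra and Thrb, the thyroid hormone receptors, had ratios of 0.924 (0.853 to 1.001) and 0.999 (0.974 to 1.02).

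All 5 genes were also found in cells that are not muscle. Cardiomyocytes held 88.6% of the Myh6 UMIs of all Sham cells kept and 96.1% in TAC, 89.8% and 97.4% of Myh7, and 89.7% and 95.5% of Myh7b. For Actc1 the figures were 79.0% and 84.4%, and for Acta1 70.6% and 75.1%. In Sham the unnamed cells took much of the remainder of Myh6, with 13221 UMIs. Per 1000000 UMIs, cardiomyocytes stood 19.6-fold above all other named cells for Myh6 in Sham and 25.2-fold in TAC, 23.1-fold and 40.2-fold for Myh7, but only 5.12-fold and 5.61-fold for Actc1 and 2.64-fold and 3.09-fold for Acta1.

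The number of Myh6 UMIs per cell was nearly the same in the 4 large types that should lack it. It was 1.21 (1.16 to 1.26) in Sham endothelial cells, 1.22 (1.18 to 1.27) in fibroblasts, 1.18 (1.12 to 1.23) in macrophages and 1.18 (1.12 to 1.25) in pericytes, although the median depth of these cells ranged from 1105 to 2155 UMIs. In TAC it was 0.917 (0.878 to 0.957), 0.844 (0.805 to 0.884), 0.814 (0.766 to 0.864) and 0.864 (0.809 to 0.922) in the same order, lower than in Sham in all 4 types. Between 64.5% and 66.8% of the Sham cells of these types and between 54.2% and 56.6% of the TAC cells had a Myh6 UMI, so that detection of Myh6 does not mark a muscle cell here. Per 1000000 UMIs the levels ran opposite to median depth in Sham, from 949 in endothelial cells through 751 in macrophages and 683 in pericytes to 516 in fibroblasts. In TAC they were 638, 420, 469 and 346, with overlapping intervals only between macrophages and pericytes. Cells with many Myh6 UMIs were also present, up to 104 in a Sham pericyte. Without removal of doublets, which are droplets holding more than 1 cell, the mean over the 4 types was 2.82 UMIs per cell in Sham and 1.78 in TAC, against 1.20 and 0.865 with removal. In the small named types Myh6 ranged from 454 UMIs per 1000000 in 85 lymphatic endothelial cells to 3394 in 38 T cells in Sham, where 1 cell held 77 of 174 UMIs, and from 293 in 15 Schwann cells to 2430 in 35 B cells in TAC, where 1 cell held 55 of 120 UMIs.

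**Figure D4:**
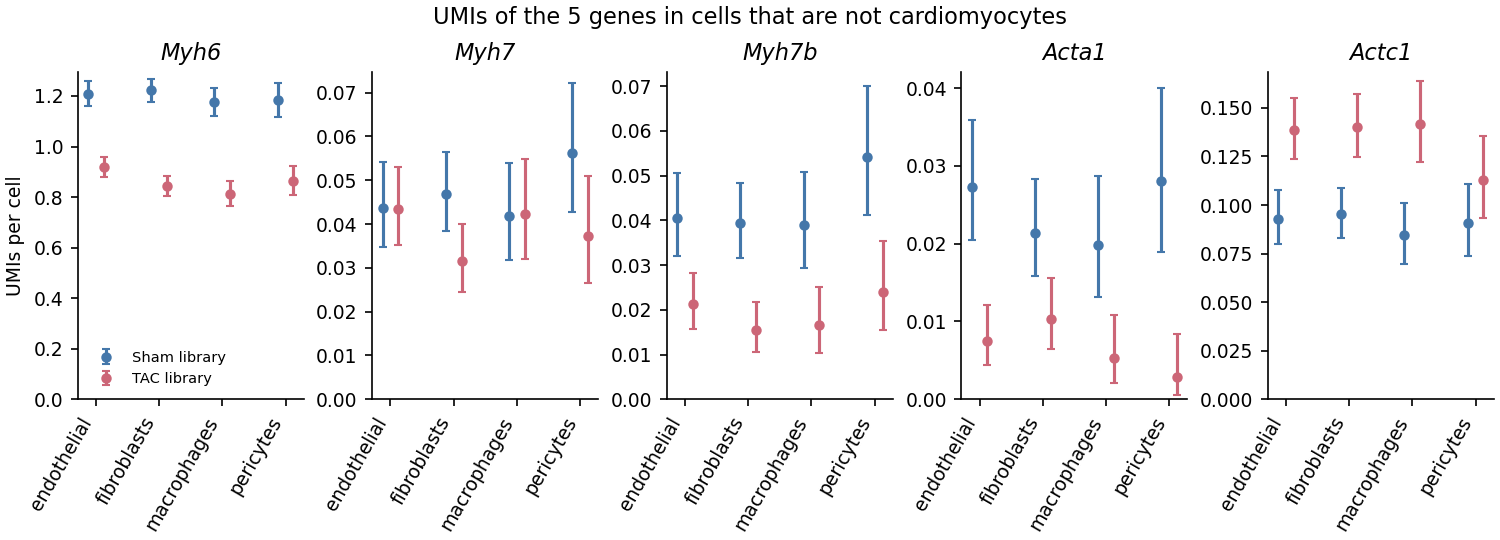
UMIs per cell of each of the 5 genes in endothelial cells, fibroblasts, macrophages and pericytes of the Sham and TAC libraries, with exact Poisson 95% intervals. Myh6 lies at 1.18 to 1.22 in Sham and 0.814 to 0.917 in TAC, and Acta1 and Myh7b are lower and Actc1 is higher in TAC.

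The differences between libraries seen in cardiomyocytes recurred in these cells, except for Myh7. For Acta1 the ratio of TAC to Sham was 0.0961 (0.0188 to 0.309) in pericytes, with 30 UMIs in Sham and 3 in TAC, and from 0.215 to 0.469 in the other types. For Myh6 it was between 0.559 and 0.686, for Myh7b between 0.344 and 0.466, and for Actc1 between 1.17 and 1.43, with an interval that included 1 only for Actc1 in pericytes. Myh7 had ratios of 0.625 in pericytes, 0.654 in fibroblasts, 0.816 in macrophages and 0.882 in endothelial cells, with intervals that included 1 for macrophages and endothelial cells. With doublets kept it was 1.46 in pericytes, 1.28 in macrophages and 0.316 in fibroblasts. The same setting gave fibroblast ratios of 0.286 for Myh6, 0.174 for Myh7b and 1.11 (0.944 to 1.30) for Actc1, and a pericyte ratio of 0.640 for Myh7b. With types from each cell's own markers, Myh7b in fibroblasts had a ratio of 0.580 (0.317 to 1.04) and Actc1 in macrophages one of 1.29 (0.968 to 1.73). Both intervals include 1.

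Pooled over the 4 large types, the isoform shares outside cardiomyocytes were not those of the cardiomyocytes. In the main values the intervals of the 4 pooled pairs did not overlap. They did overlap for the TAC Acta1 share with doublets kept, at 4.44% (3.35 to 5.75%) against 2.94% (2.50 to 3.42%), and for the Sham Myh7 share with types from each cell's own markers, at 4.01% (3.46 to 4.63%) against 4.29% (4.20 to 4.39%). The Acta1 share over the 4 large types was 20.6% (17.8 to 23.7%) in Sham against 11.7% in cardiomyocytes, and 5.07% (3.77 to 6.64%) in TAC against 2.94%. The Myh7 share was 3.71% (3.32 to 4.14%) in Sham against 4.33%, and 4.26% (3.77 to 4.80%) in TAC against 6.63%, or 5.49% with doublets kept. The shares of the 4 types had overlapping intervals in each library. Taken singly, every type had a Sham Myh7 interval that overlapped that of the cardiomyocytes. In Sham pericytes the Myh7 share was 4.53% (3.48 to 5.80%), above 4.33%. The TAC Acta1 interval overlapped that of the cardiomyocytes in every type but fibroblasts. In TAC pericytes the Acta1 share was 2.48% (0.514 to 7.07%), below 2.94%. Relative to 100 Myh6 UMIs, Sham endothelial cells held 7.70 (6.57 to 8.98) Actc1 and 2.26 (1.68 to 2.98) Acta1 UMIs, whereas Sham cardiomyocytes held 1.95 and 0.259. The light chain transcript Myl2 was likewise over-represented, at 25.6 per 100 Myh6 UMIs against 6.48, while Ttn was under-represented, at 145 against 289. Tnnt2 differed less, at 86.8 (81.7 to 92.2) in Sham endothelial cells against 78.3 in cardiomyocytes. In TAC it was 61.6 (57.4 to 66.0) against 62.5. The RNA outside cardiomyocytes thus had more actin and light chain and less titin for each Myh6 molecule than the cardiomyocytes themselves, in both libraries. Its source was not tested.

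**Figure D5:**
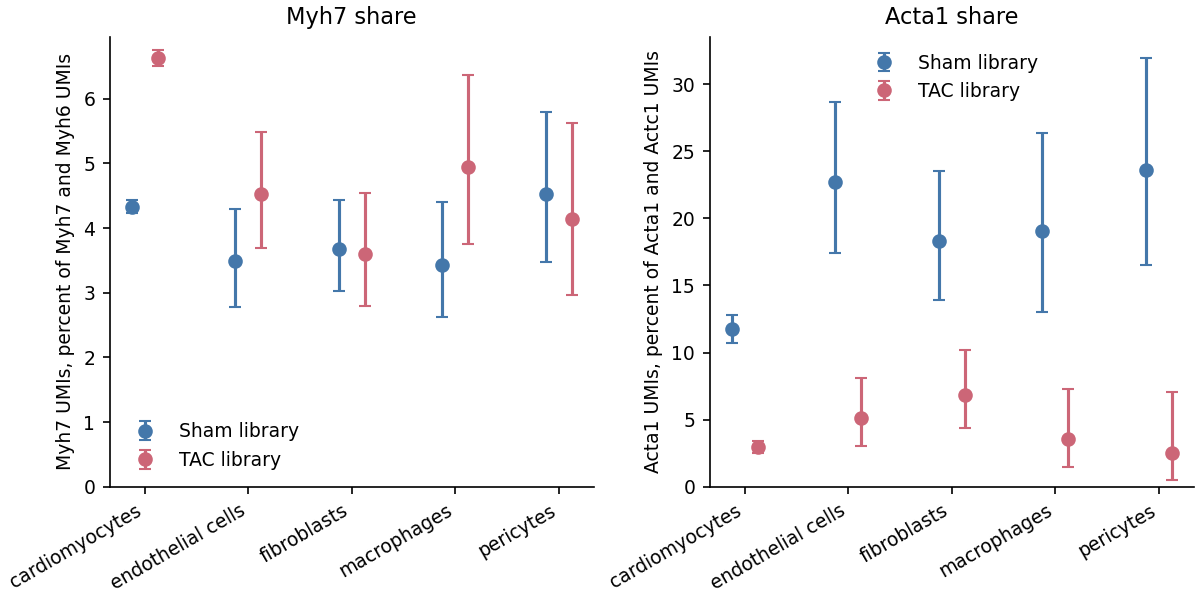
Pooled Myh7 share of Myh6 and Myh7 UMIs and pooled Acta1 share of Acta1 and Actc1 UMIs in cardiomyocytes and in the 4 large other types of each library, with exact Clopper-Pearson 95% intervals. In Sham the Acta1 share is 11.7% in cardiomyocytes and 18.4 to 23.6% in the other types, and in TAC the Myh7 share of cardiomyocytes, 6.63%, lies above those of the other 4 types.

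The counts outside cardiomyocytes can be set beside those within them as a background. Pooled, the 4 large types held 0.0238 Acta1 UMIs per cell in Sham and 0.00725 in TAC, against 0.188 and 0.0655 in cardiomyocytes. For Actc1 they held 0.0916 and 0.136, against 1.41 and 2.16, and for Myh7 0.0463 and 0.0385, against 3.28 and 4.51. For Myh7b they held 0.0420 and 0.0190, against 2.26 and 1.25, and for Myh6 1.20 and 0.865, against 72.4 and 63.5. Pooled over all cardiomyocytes, each gene was above these values in both libraries, by the least for Acta1. In the TAC cluster led by Pdzrn4, Acta1 had 6 UMIs in 650 cells. Per 1000000 UMIs this was 1.37 (0.502 to 2.98), against 1.56 (0.321 to 4.56) in TAC pericytes, 2.73 (1.10 to 5.62) in macrophages, 4.24 (2.65 to 6.41) in fibroblasts and 5.24 (3.05 to 8.39) in endothelial cells. With doublets kept, the 4 types held 0.104 Myh7 UMIs per cell in both libraries, and 0.0840 and 0.0361 Myh7b UMIs.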

How the data were processed

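The members and gene lists were chosen with earlier results of these data known. The authors deposited raw UMI counts per gene and barcode, made with Cell Ranger (7.1.0 in the submitters' processing notes, another version in the paper). The genome build, the use of strand and the counting of introns are not given in the sources used here, and the kit version differs between paper and labels. GENCODE M21 (GRCm38) held 94.1% of the 55357 identifiers and gave positions and transcripts.

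Cells with at least 200 genes were kept, and Scrublet at 0.8% per 1000 cells removed 469 Sham and 472 TAC barcodes. Each library was clustered by itself with scanpy 1.11.5 (2000 variable genes, 30 components, 15 neighbours, Leiden resolution 1, seed 1) without the members and mitochondrial genes. Clusters were named from at least 3 fixed markers, seen in 10% of cells with a log2 fold of 1 over the other cells. UMIs were summed per type and given per 1000000, with exact Poisson, Clopper-Pearson or conditional binomial intervals from scipy 1.17.1. Per-cell shares needed 20 UMIs of the pair, and detection was compared after thinning to 1000 UMIs. A count of 0 allows up to 3 counts. From each list the genes with the highest and lowest ratio were named, and for Myh7 and Acta1 the 5 genes with the highest correlation among those seen in 5% of cells; other list genes were named after their values were seen. The fold calls, the ratio and share intervals and the thinning were run on simulated counts. Clustering, naming and doublet removal were not. Alternatives were other cell filters, doublet handling, resolutions, joint clustering, naming from each cell's own markers, levels without mitochondrial genes, atrial-like cells or shared barcodes (32 in all) left out, and other minima, thinning and folds.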

Additional observations from a re-analysis of the deposited data

Results flagged for a closer look

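Myh7 differed in opposite directions between the libraries in cardiomyocytes on one side and fibroblasts and pericytes on the other. In cardiomyocytes the ratio of TAC to Sham was 1.34 (1.31 to 1.39), whereas in fibroblasts it was 0.654 (0.474 to 0.895), from 107 Sham and 67 TAC UMIs, and in pericytes 0.625 (0.406 to 0.951), from 60 and 39 UMIs. In endothelial cells it was 0.882 (0.652 to 1.20) and in macrophages 0.816 (0.556 to 1.20), intervals that include 1. The difference was not tested, as each condition has 1 library. Without removal of doublets the ratio in pericytes was 1.46 (1.16 to 1.83), and in macrophages 1.28 (1.05 to 1.55), the direction seen in cardiomyocytes, while in fibroblasts it was 0.316 (0.242 to 0.408). The direction in pericytes and macrophages therefore depends on that step. In pericytes the ratio stayed below 1 but its interval included 1 with at least 500 genes per cell (0.438 to 1.04), at resolution 0.5 (0.431 to 1.02), with joint clustering (0.429 to 1.02), with the 5 genes kept in the clustering (0.436 to 1.04) and with types from each cell's own markers (0.421 to 1.20). In fibroblasts it did so with types from each cell's own markers (0.436 to 1.06).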

How the results depend on the processing

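Of 146 recomputed values of the isoform shares, member ratios and list counts under 22 settings, 138 stayed within the counting interval of the main value or within 1.5 times a main count, and no member ratio or share changed direction. With cell types taken from each cell's own markers, which counted 4062 Sham and 3302 TAC cells as cardiomyocytes, the ratio of TAC to Sham was 0.904 for Myh6, 1.43 for Myh7, 0.578 for Myh7b and 1.58 for Actc1. At that setting 5 listed genes were lower instead of 8, while 1360 of all genes were lower instead of 864. Actc1 then passed 1.5-fold, as it did with doublets kept, at resolution 0.5, with joint clustering and with the unnamed Sham cluster counted, and its ratio ranged from 1.48 to 1.58. At 2-fold, 1 listed gene was higher and 2 were lower. With at least 200 UMIs none (0) was higher, instead of 2, Myl4 and Tnnt1. The shares over all genes at these settings are not given here, so these counts were not compared with them. Of the other recomputed values, the Myh7 ratio in pericytes reversed to 1.46 with doublets kept, and 72 moved beyond their interval. Among the values that moved was the Myh7 ratio in macrophages, from 0.816 to 1.28 (1.05 to 1.55) with doublets kept. The causes were not tested. With the unnamed Sham cluster counted as cardiomyocytes, chosen after seeing the data, the Sham shares were 4.31% for Myh7 and 11.4% for Acta1. No paired analysis was possible because Sham and TAC were represented by a single library apiece, and for the same reason none could be left out. The few actin UMIs per cell limit the single-cell Acta1 share, and the animals behind a library, their number and the batch cannot be told apart from the condition.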
